A study of Mus musculus with 6 samples.

Results

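Rif1 and 9 genes of protein phosphatase 1 (PP1) were followed in RNA-seq libraries of E14, an established line of mouse embryonic stem cells. The 10 genes were taken by symbol from 33924 rows of the count tables: Rif1, the catalytic subunit genes Ppp1ca, Ppp1cb and Ppp1cc, and the regulatory subunit genes Ppp1r2, Ppp1r7, Ppp1r8, Ppp1r10, Ppp1r11 and Ppp1r12a. There were 3 libraries labelled control (WT) and 3 labelled Rif1-KO. All 6 carry the same culture text in the labels: gelatin-coated plates, 2i medium, and 4-hydroxytamoxifen (4-OHT) at 0.1 µM for 2 days followed by 1 day without it, although the treatment field reads Day 0. The column headers instead carry the tag 2i for control and the tag TAM for Rif1-KO, so whether medium or drug also differed between the groups cannot be told apart from genotype here. How Rif1 was disrupted, and whether either group is 1 clone, is not given in the sources used here. Whether replicates came from separate cultures is not labelled either, so each p-value reflects only how far these libraries spread, which may be technical.

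PP1 is a serine/threonine phosphatase whose catalytic subunits have little specificity of their own and are directed by a large set of regulatory subunits that dock on shared surfaces. RIF1 is one of these regulators: it brings PP1 to chromatin, where the phosphatase removes the phosphates that the DDK kinase places on the MCM helicase and so holds back origin firing. In mouse embryonic stem cells RIF1 is abundant and is known for its part in replication timing and silencing. Because regulators share docking surfaces, they compete for a common pool of catalytic subunits.

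Total counts ran from 8383632 to 10980777 per library, and single members were read between 178 times (Ppp1r11) and 6658 times (Rif1) in a library. Levels are given in CPM, the count scaled to library size with TMM. The error of a CPM value is the SD over 3 libraries and that of a log2 fold change its standard error (SE). A gene is said to have risen or fallen where the adjusted p of edgeR's quasi-likelihood test, over 14250 genes, was under 0.05 (Benjamini-Hochberg). Markers of embryonic stem cells summed to 5112 to 5304 CPM in control libraries and 5266 to 5397 CPM in those labelled Rif1-KO over 8 genes, of which 3 rose and 2 fell: Sox2 went from 683 to 469 CPM and Sall4 from 277 to 187 CPM, while Tfcp2l1 went from 1501 to 1875 CPM. Other marker lists were lower but differed between the groups: 5 trophectoderm genes summed to 56.4 to 57.6 against 146 to 161 CPM, almost wholly from the keratin genes Krt8 and Krt18, with Cdx2 at 0 and Eomes not passed, 4 primitive endoderm genes to 9.73 to 11.5 against 14.7 to 15.3 CPM, and 2 neuroectoderm genes to 40.1 to 51.4 against 97.2 to 103 CPM, nearly all from Nes, with Pax6 at a mean of 0.345 and 0.412 CPM. Of the endoderm genes, Gata6, Gata4 and Sox17 rose, while Sox7, too low to be tested, went from a mean of 0.543 to 0.0975 CPM. A list of 6 fibroblast genes summed to 13.9 to 22.5 against 12.7 to 13.7 CPM. Within it Thy1 fell from 11.3 to 5.67 CPM and Twist1 rose from 2.58 to 4.22 CPM, 1 gene did not pass and 3 were not tested. The part of such cells, if present, in the member results was not tested, and in bulk RNA fewer cells of a type and less RNA per cell cannot be told apart.

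The PP1 genes moved in both directions by modest amounts. Of the 10 members, 3 rose (Ppp1cb, Ppp1r2 and Ppp1r12a), 5 fell (Ppp1ca, Ppp1cc, Ppp1r7, Ppp1r8 and Ppp1r10), and Rif1 and Ppp1r11 did not pass. Calls were common in this comparison: 50.9% of all tested genes passed, 26.1% upward and 24.8% downward, and 57.2% passed among the 9821 genes with a mean of at least 10 CPM, where every member lies, 26.9% upward and 30.3% downward. The members' median absolute log2 fold change was 0.28, against 0.25 over all tested genes. The libraries of the groups did not overlap at 9 of the 10 members, 3 higher and 6 lower in the group labelled Rif1-KO, against 57.2% of all tested genes, 29.4% higher and 27.8% lower. The size of the members' changes thus lay near the middle of all tested genes, which include those with a mean under 10 CPM. Size and overlap were not compared within the 9821 genes above that level. The share called, 8 of only 10 genes, stood above the background without a test of that difference.

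**Figure D1:**
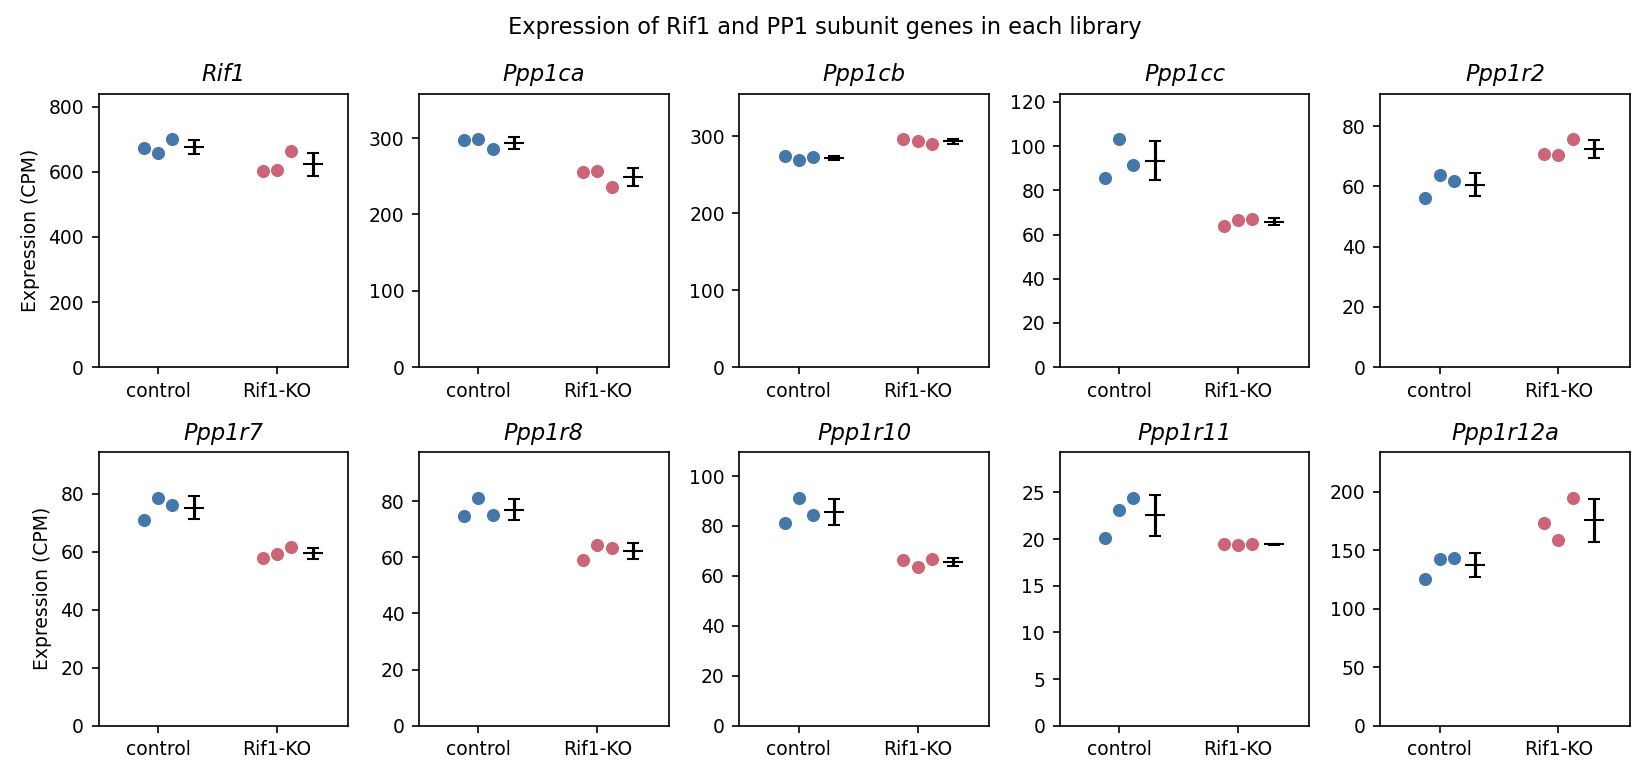
Expression of each member in CPM (vertical axis, from 0, a separate scale per gene) in the 3 control libraries (blue) and the 3 libraries labelled Rif1-KO (red), with mean and SD beside each group. Ppp1cc shows the widest separation downward and Ppp1r12a the widest upward, while the Rif1 libraries overlap.

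Rif1, the gene named in the labels, was read at 673, 657 and 700.1 CPM in control libraries and at 602, 604 and 664 CPM in those labelled Rif1-KO. The third library labelled Rif1-KO exceeded the second control library, so the groups overlapped. The log2 fold change was −0.12 ± 0.05 (adjusted p = 0.0509), a level 7.89% lower, and 74.1% of tested genes had a larger absolute change. The third library labelled Rif1-KO weighed on this value: without it the log2 fold change was −0.17 and passed (adjusted p = 0.00486). It also passed without control replicate 2 (−0.14, adjusted p = 0.0343). Leaving out any of control replicate 3 and the first 2 replicates labelled Rif1-KO gave an adjusted p between 0.176 and 0.212, and leaving out control replicate 1 gave 0.057. A count over the whole gene does not show whether single exons are missing, so it does not check the deletion.

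Among the catalytic subunits, Ppp1cc fell most. This gene encodes PP1γ, a form found on chromosomes and in nucleoli. It stood at 85.6, 103 and 91.6 CPM in control libraries and at 64.0, 66.7 and 66.9 CPM in those labelled Rif1-KO, with no overlap and a wider spread among the control libraries. The log2 fold change was −0.50 ± 0.06 (adjusted p = 1.65e-06), or 29.5% lower, and 21.2% of tested genes had a larger absolute change. Of its 50-base stretches 40.0% occur in other genes, mainly the retrocopy Ppp1ccb (38.9%), so how reads were divided between copies is uncertain. Ppp1ccb has no row of that symbol in the tables, so its reads cannot be checked. Gm14122, which shares 4.76% of the stretches, does have a row. It held 8 to 19 counts per library, against 612 to 849 for Ppp1cc.

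Ppp1ca encodes PP1α, which is spread through nucleus and cytoplasm. It was read at 298, 299 and 285 CPM in control libraries and at 255, 257 and 236 CPM in those labelled Rif1-KO, all 3 of them below every control library. Its log2 fold change was −0.24 ± 0.05 (adjusted p = 0.00031), or 15.1% lower. A stretch of 8.93% of its exonic bases lies across from Rad9a on the other strand. Rad9a, named Rad9 in the tables, fell as well, with a log2 fold change of −0.18 ± 0.07 (adjusted p = 0.0242). The strand setting of the counting is not given, so reads of the shared stretch cannot be assigned.

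Ppp1cb, which encodes PP1β (also called PP1δ), the form that works with myosin phosphatase, moved the other way. It was read at 274, 269 and 273 CPM in control libraries and at 296, 293 and 289.7 CPM in those labelled Rif1-KO. Both groups were tight, with SDs of 2.66 and 3.23 CPM, and did not overlap. The log2 fold change was small, 0.11 ± 0.04 (adjusted p = 0.0425), or 7.75% higher. This call did not hold in 10 of 16 alternatives, among them DESeq2 (adjusted p = 0.0882) and every fit without 1 library other than Rif1-KO replicate 3 (adjusted p from 0.0616 to 0.14). With an offset for GC content and length the value was −0.05 (adjusted p = 0.379). Gm43312 overlaps 17.5% of the exonic bases of Ppp1cb on the same strand. It has no counts under that symbol, so reads of the shared stretch cannot be assigned.

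The 3 catalytic genes therefore did not move together, and their proportions within a library were compared. This measure does not depend on scaling between libraries, but the offset for GC content and length was not applied to it. With that offset the log2 fold changes of Ppp1ca, Ppp1cb and Ppp1cc were −0.18, −0.05 and −0.49. Per length of annotated exons, Ppp1ca made up 70.2%, 68.4% and 68.6% of the catalytic total in control and 68.9%, 68.7% and 67.0% in those labelled Rif1-KO, which overlap (exact two-sided permutation p = 0.6). This overlap held with exon length only: with the longest transcript as length its share was 71.6%, 70.1% and 70.1% against 69.7%, 69.7% and 68.0%, which do not overlap (exact permutation p = 0.1). The longest coding transcript and no length correction also gave lower shares without overlap, by −1.38 and −3.58 percentage points. Ppp1cb made up 14.9%, 14.2% and 15.2% in control libraries and 18.4%, 18.1% and 19.0% in those labelled Rif1-KO. Ppp1cc made up 14.9%, 17.4% and 16.2% in control libraries and 12.7%, 13.1% and 13.98% in those labelled Rif1-KO. The mean share of Ppp1cb was 3.75 percentage points higher and that of Ppp1cc differed by −2.89 points. Neither share overlapped between groups, with an exact two-sided permutation p = 0.1 for each, the smallest that 3 against 3 libraries can give. The log2 ratio of Ppp1cc to Ppp1cb, which needs no length, was 0.61 lower in libraries labelled Rif1-KO, with no overlap (exact permutation p = 0.1). Of the ratios of any 2 genes with a mean of at least 10 CPM, 62.5% likewise did not overlap.

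**Figure D2:**
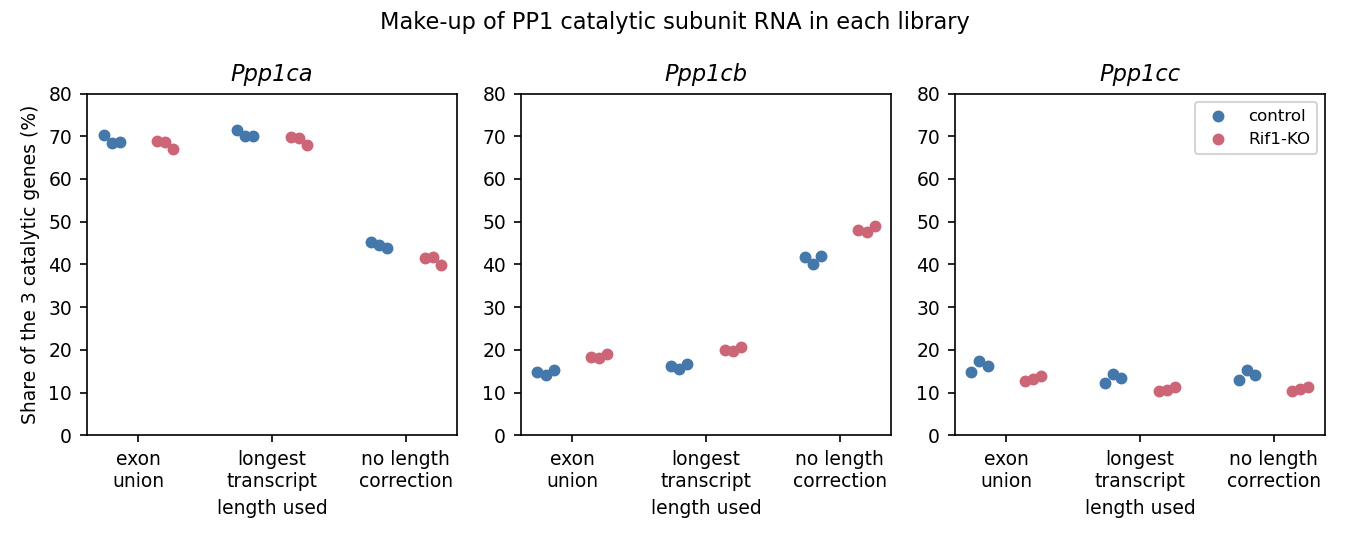
Share of Ppp1ca, Ppp1cb and Ppp1cc in their sum (%, vertical axis) in each library, with 3 ways of allowing for transcript length along the horizontal axis. Ppp1cb is higher and Ppp1cc lower in the 3 libraries labelled Rif1-KO under all 3, while the level of the shares, above all of Ppp1cb, depends on the length used.

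Summed per length, the catalytic genes stood at 169 ± 4.22 CPM per kb in control libraries and 145 ± 4.62 CPM per kb in those labelled Rif1-KO, without overlap (SD, n = 3; p = 0.1 by the exact two-sided permutation test). The log2 ratio of Rif1 to this sum, both per length, was −1.39, −1.47 and −1.31 in control libraries and −1.36, −1.37 and −1.14 in those labelled Rif1-KO. These values overlap, and the difference of 0.10 on the log2 scale had an exact permutation p of 0.4. The ratio of Rif1 to catalytic subunit RNA thus overlapped between the groups, and this test cannot give a p below 0.1 with 3 against 3 libraries. These are ratios of RNA and say nothing of protein or of complexes.

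Among the inhibitors, Ppp1r2 encodes inhibitor-2, a protein that binds the catalytic subunit directly and blocks its active site. The gene was read at 56.2, 63.8 and 61.8 CPM in control libraries and at 70.9, 70.4 and 75.7 CPM in those labelled Rif1-KO. All 3 of the latter lay above the control libraries, with a log2 fold change of 0.25 ± 0.06 (adjusted p = 0.00158), or 19.3% higher. With the GC content and length offset the change was 0.16 (adjusted p = 0.0287). Of its 50-base stretches, 9.11% also occur in pseudogenes of Ppp1r2, which have no row of that symbol in the tables. Ppp1r11 encodes inhibitor-3, which holds newly made PP1 in an inactive complex together with SDS22. It was the member with the fewest reads, at 20.1, 23.1 and 24.4 CPM in control libraries and 19.4, 19.4 and 19.5 CPM in those labelled Rif1-KO. The groups did not overlap, but control replicate 1 lay close to the other group and the gene did not pass (log2 fold change −0.21 ± 0.09, adjusted p = 0.0627). Without control replicate 1 it did (−0.29, adjusted p = 0.0154).

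Ppp1r7 encodes SDS22, the partner of inhibitor-3 in that complex. Its libraries held 70.8, 78.6 and 76.0 CPM in control libraries and 57.7, 59.3 and 61.5 CPM in those labelled Rif1-KO. Every library of the latter group lay below every control library, with a log2 fold change of −0.34 ± 0.06 (adjusted p = 7.25e-05), or 20.9% lower. Pask, which overlaps 2.14% of its exonic bases on the other strand, fell by 0.18 ± 0.06 on the log2 scale (adjusted p = 0.012).

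The nuclear regulators both fell. Ppp1r10 encodes PNUTS, which with TOX4 and WDR82 forms a PP1 complex that acts on transcribing RNA polymerase II. It was read at 81.1, 91.4 and 84.5 CPM in control libraries and at 66.2, 63.6 and 66.7 CPM in those labelled Rif1-KO. The lowest control library exceeded the highest of the other group by more than either group's SD (5.23 and 1.66 CPM), and the log2 fold change was −0.38 ± 0.06 (adjusted p = 1.34e-05). Its partner gene Wdr82 fell by 0.14 ± 0.04 on the log2 scale (adjusted p = 0.0112), while Tox4 was at 124 ± 4.64 and 131 ± 5.08 CPM (SD, n = 3; adjusted p = 0.243), a gene picked for its place in the complex with its values known. Ppp1r8 encodes NIPP1, a nuclear PP1 regulator linked to splicing factors. Its level was 74.6, 81.3 and 75.2 CPM in control libraries and 59.2, 64.2 and 63.4 CPM in those labelled Rif1-KO, again without overlap. Its log2 fold change was −0.31 ± 0.06 (adjusted p = 0.000191), and its ratio to Ppp1ca overlapped between the groups.

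Ppp1r12a encodes MYPT1, which directs PP1β to myosin, and rose most. Its RNA stood at 125, 143 and 143 CPM in control libraries and at 173, 158 and 195 CPM in those labelled Rif1-KO, the group with the wider spread (SDs of 10.2 and 18.3 CPM). No library overlapped, and the log2 fold change was 0.36 ± 0.07 (adjusted p = 0.000131), or 28.3% higher. With the GC content and length offset it was 0.22 (adjusted p = 0.00443). Ppp1cb, the catalytic partner of MYPT1, and Ppp1r12a were thus both called higher, Ppp1cb with the reservation given above.

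Direction split by base composition within the set. The 3 members that rose have longest transcripts of 39.9% (Ppp1r12a), 40.8% (Ppp1cb) and 42.0% (Ppp1r2) GC, and the 5 that fell have 47.6% (Ppp1r7) to 56.1% (Ppp1ca). Rif1, with 39.3%, is the exception at the low end. A per-library offset for GC content and length moved 4 members by over 1.5 times: Rif1 went to −0.27 (adjusted p = 1.64e-05), Ppp1cb to −0.05, Ppp1r2 to 0.16 and Ppp1r12a to 0.22. Ppp1r7 also moved down, to −0.42, while Ppp1cc and Ppp1r10 stayed at −0.49 and −0.39. With the offset, 6 members fell and 2 rose, and the median of all tested genes moved from 0.003 to −0.03. The offset was fitted to each library, so it also takes up any difference between the groups that follows GC content or length. Whether base composition has a part in any of these differences was not tested.

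**Figure D3:**
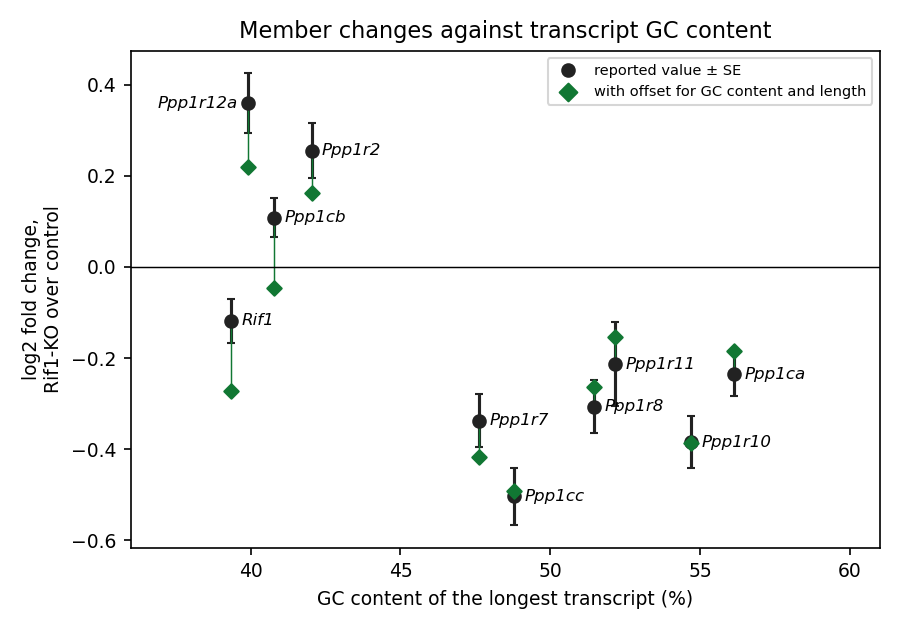
log2 fold change of each member (vertical axis, circles with SE) against the GC content of its longest annotated transcript (%, horizontal axis), with the value under an offset for GC content and length as green diamonds. The 4 members under 45% GC move down with the offset, as does Ppp1r7 at 47.6%, and Ppp1cb crosses 0. The offset takes GC content and length together, so their parts are not separated.

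Ratios between members do not depend on scaling between libraries, but the offset for GC content and length was not applied to them. Of 45 ratios of 2 members, 33 did not overlap between the groups, against 62.5% of the ratios of any 2 genes with a mean of at least 10 CPM, so the count is not read as a result about the members. The 5 genes Ppp1ca, Ppp1r7, Ppp1r8, Ppp1r10 and Ppp1r11 kept overlapping ratios to each other, apart from Ppp1r10 to Ppp1r11. The log2 ratio of Ppp1cc to Ppp1r12a moved most, by −0.86. Ratios of Ppp1r2 to Ppp1r12a, both of which rose, overlapped, and Rif1 overlapped with Ppp1ca and Ppp1r11.

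**Figure D4:**
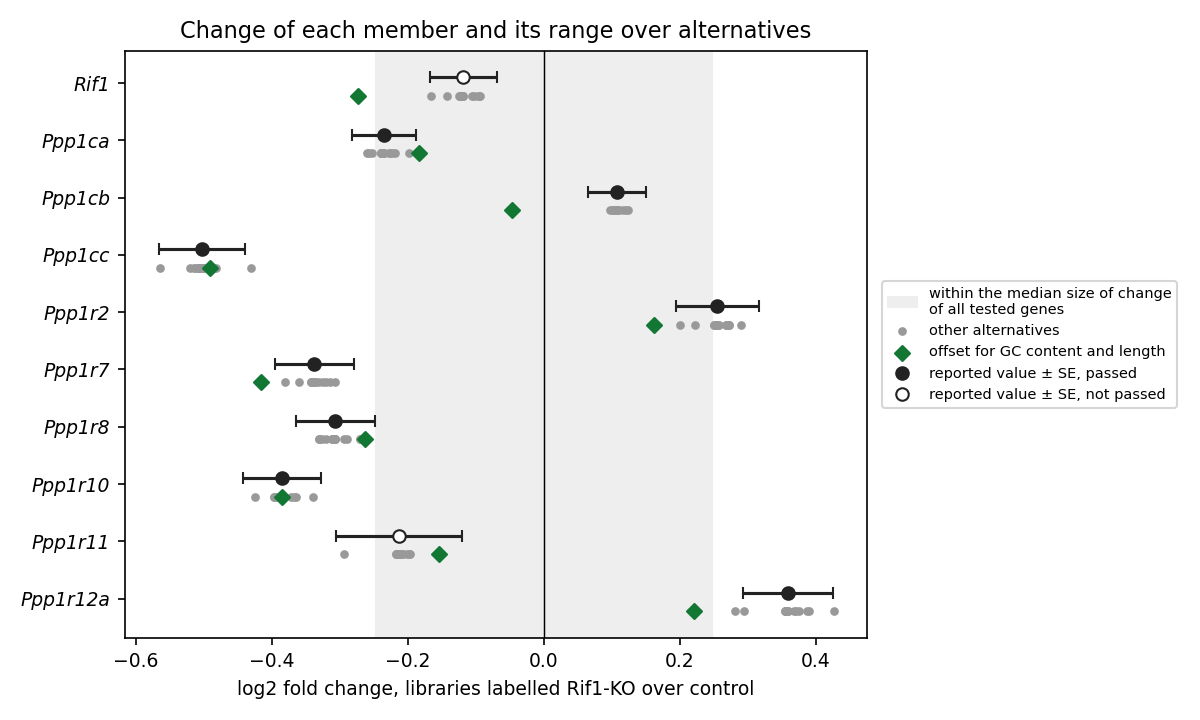
log2 fold change of each member with SE (black circles, filled where the test passed, open where it did not), its values under 16 alternatives (grey points, green diamond for the GC content and length offset), and in grey the span within 0.25 of 0, the median absolute change of all tested genes. For 7 members all alternatives pass on the same side of 0, while Rif1, Ppp1cb and Ppp1r11 change their call.

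Levels of different genes were compared per length of annotated exons (GRCm38), which carries the uncertainty of which transcripts are used. In control, Ppp1ca led with 117 ± 3.03 CPM per kb, followed by Rif1 with 64.4 ± 2.09 CPM per kb. Ppp1cc, Ppp1r8 and Ppp1cb followed at 27.3 ± 2.60, 26.3 ± 1.26 and 24.9 ± 0.244 CPM per kb, levels whose SD intervals touch or overlap from one to the next. Next came Ppp1r12a with 17.1 ± 1.28, Ppp1r10 with 15.2 ± 0.931 and Ppp1r2 with 13.7 ± 0.884 CPM per kb, with SD intervals that overlap between neighbours. Ppp1r11 and Ppp1r7 closed the order, each below its neighbour by more than the SDs, with 11.4 ± 1.12 and 7.16 ± 0.378 CPM per kb (SD, n = 3 throughout). In the libraries labelled Rif1-KO, Ppp1ca (99.0 ± 4.59) and Rif1 (59.3 ± 3.38 CPM per kb) still led, and Ppp1cb (26.9 ± 0.296) stood above Ppp1r12a (21.9 ± 2.28), Ppp1r8 (21.3 ± 0.927) and Ppp1cc (19.2 ± 0.476 CPM per kb). With the longest transcript as length Ppp1cb came next after Rif1 in control, at 45.6 ± 0.447 CPM per kb, ahead of Ppp1r8 and Ppp1cc.

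The stretch before the start site is shown for the members that moved most in each direction, from RefSeq (GRCm38.p6, a later build than that of the counts). A table of promoters holds 8 of the 10 members, and Rif1 and Ppp1ca have no entry. Each sequence is the 250 bases before the first listed start, 5′ to 3′ on the gene's strand, which is + for both. Capitals mark matches to the motifs searched, other than Sp1.
Ppp1cc, chr5:122158025-122158274: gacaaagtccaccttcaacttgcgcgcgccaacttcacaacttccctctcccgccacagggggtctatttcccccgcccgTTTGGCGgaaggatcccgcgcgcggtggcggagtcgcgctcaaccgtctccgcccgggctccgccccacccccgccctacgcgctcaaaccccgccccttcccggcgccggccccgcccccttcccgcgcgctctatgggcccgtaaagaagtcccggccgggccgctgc
Ppp1r12a, chr10:108161848-108162097: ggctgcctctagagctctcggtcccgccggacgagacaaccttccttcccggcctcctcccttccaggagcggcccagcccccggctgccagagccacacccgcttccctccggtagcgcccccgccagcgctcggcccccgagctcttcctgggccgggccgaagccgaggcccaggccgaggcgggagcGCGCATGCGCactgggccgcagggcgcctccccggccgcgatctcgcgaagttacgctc
The 7 motifs, searched on both strands and chosen after the sequences had been seen, were TTTCCCG and TTTGGCG (E2F type), GCGCATGCGC (NRF1, the half-site GCGCA and its reverse complement), CCAAT (NF-Y), GGGCGG (Sp1), CCGGAAG (ETS) and CACGTG (E-box). No match overlapped another one of a different motif in these 2 sequences. Ppp1cc holds TTTGGCG, beginning 170 bases before the start, a motif present in 1.28% of 27025 promoters of the same length. Ppp1r12a holds GCGCATGCGC, beginning 59 bases before the start and present in 0.781% of them. The Sp1 letters occur in Ppp1cc, Ppp1cb, Ppp1r2, Ppp1r8 and Ppp1r10 (32.9% of promoters), and CCAAT occurs in Ppp1r7 and Ppp1r11 (34.5%). Both shown sequences are rich in GC, with 72% and 75.2% against a median of 52% over all promoters.

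Other genes of the PP1 family gave no common direction. Outside the members, 52 genes of PP1-binding proteins were looked up, and 43 had enough reads to be tested. Of these, 10 rose, 14 fell and 19 did not pass (55.8% called, against 50.9% of all tested genes), with a median log2 fold change of 0.002, against 0.003 over all tested genes. Of the 43, 3 reached the filter's level in every library of only the group where they were high (Phactr3, Ppp1r1b and Ppp1r3d). Without them 9 rose, 12 fell and 19 did not pass. The counts by role below are to be read against 26.1% of all tested genes that rose and 24.8% that fell, and differences between roles were not tested.

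Of 5 further inhibitors tested, none rose, 4 fell and 1 did not pass. Without Ppp1r1b, 3 of 4 fell. The 2 not tested were Ppp1r1c, with no reads, and Ppp1r14c. The latter was at 0.147 ± 0.169 CPM in control libraries and 0.752 ± 0.340 CPM in those labelled Rif1-KO (SD, n = 3). Ppp1r1a, which encodes inhibitor-1, was at 44.2 ± 5.71 CPM in control libraries and 26.9 ± 1.61 CPM in the other group (SD, n = 3), a log2 fold change of −0.71 ± 0.09 (adjusted p = 1.3e-06). Ppp1r14b fell by 0.47 ± 0.09, Ppp1r14d by 1.33 ± 0.20, and Ppp1r1b, which encodes DARPP-32, by 1.55 ± 0.25 on the log2 scale, the last from 3.93 ± 0.433 to 1.31 ± 0.388 CPM, a gene that reached the filter's level in every library of the control group only. Of the tested inhibitors, only Ppp1r2 among the members rose.

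Among 11 cytoskeletal regulators 3 rose, 4 fell and 4 did not pass, and without Phactr3 3 fell. Ppp1r9a, which encodes neurabin-1, rose by 0.63 ± 0.06 and Ppp1r18 by 0.38 ± 0.08, while Ppp1r9b, which encodes spinophilin, fell by 0.25 ± 0.06 and Ppp1r16b by 1.06 ± 0.19 on the log2 scale. Of the 4 tested glycogen-targeting subunits, 2 rose and 2 did not pass. Without Ppp1r3d, 1 of 3 rose. Ppp1r3c rose by 0.58 ± 0.16 on the log2 scale, and Ppp1r3d went from 0.408 ± 0.213 to 2.67 ± 0.898 CPM, a gene that passed the filter on low counts only through the libraries labelled Rif1-KO. Of the subunits that direct PP1 to the translation factor eIF2alpha, Ppp1r15b, the constitutive one, fell by 0.37 ± 0.05, while the stress-induced Ppp1r15a was at 47.1 ± 3.85 and 47.1 ± 1.82 CPM.

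Among 10 chromosome and nuclear PP1 regulators tested, none rose, 4 fell and 6 did not pass, against 50.9% of all tested genes called. Rrp1b, a nucleolar PP1 regulator, was at 213 ± 1.72 CPM in control libraries and 147 ± 1.71 CPM in the other group (SD, n = 3), a log2 fold change of −0.54 ± 0.04 (adjusted p = 4.46e-09). Cdca2, which encodes Repo-Man, a regulator that takes PP1γ to chromosomes as mitosis ends, went from 174 ± 4.89 to 138 ± 5.23 CPM (log2 fold change −0.34 ± 0.05). Kif18a, a mitotic kinesin gene, had −0.15 ± 0.06, a call that did not hold in 9 of 16 alternatives (adjusted p up to 0.215) and that went to −0.30 with the GC content and length offset. Of 11 other PP1-binding proteins, 5 rose, 1 fell and 5 did not pass. Zfyve16, an endosomal protein gene, went from 25.8 ± 1.07 to 58.9 ± 3.42 CPM (log2 fold change 1.19 ± 0.07), Ppp1r13l rose by 0.66 ± 0.07 and Shoc2, part of a PP1 complex that acts on RAF kinases, by 0.41 ± 0.07, while Akap1, a mitochondrial anchor, fell by 0.28 ± 0.05.

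**Figure D5:**
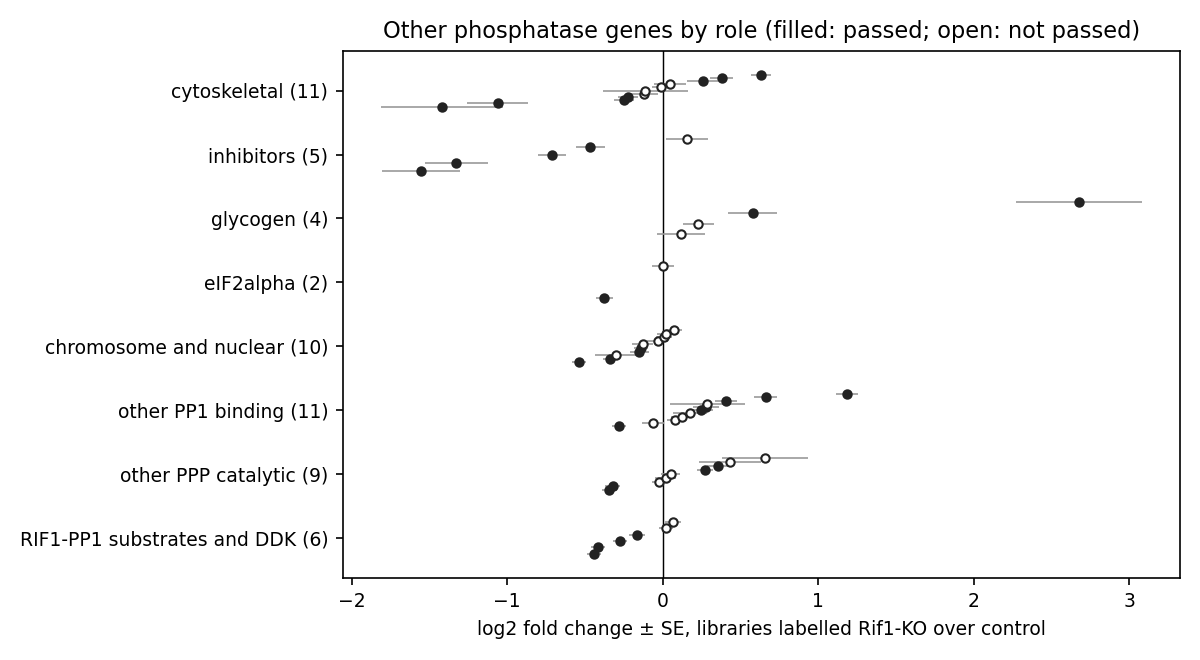
log2 fold change with SE (horizontal axis) of tested phosphatase, PP1-binding, RIF1-PP1 substrate and DDK genes outside the members, by role (rows, number tested in parentheses). Filled circles passed, open circles did not. No gene rose among the inhibitors, the eIF2alpha subunits, the chromosome and nuclear group, and the substrates with DDK, and none fell in the glycogen group. Of all tested genes 26.1% rose and 24.8% fell, and differences between roles were not tested. The cytoskeletal, other PP1-binding and other catalytic groups have genes called in both directions.

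Genes whose pattern over the 6 libraries was most like that of Rif1 were named by Pearson's r of log2 CPM among 9820 other genes with a mean of at least 10 CPM, as a description over libraries that share their group and depth. They were Mlf1ip (r = 0.986; current symbol Cenpu), Rg9mtd3 (0.984; current symbol Trmt10b), Zfp799 (0.984), Med13l (0.983) and Phf10 (0.979). Like Rif1, each was highest in control replicate 3 and, within the group labelled Rif1-KO, in replicate 3, which largely follows from how they were picked. No more than 2 of the 5 stayed among the 5 most alike when any 1 library was left out, and none did by Spearman's rho. Of the members, Ppp1r7 was nearest to Rif1 (r = 0.773) and Ppp1cb farthest (r = −0.778). By Spearman's rho Ppp1r11 was nearest (0.771), above Ppp1r7 (0.657).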

How the data were processed

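For each library the authors deposited whole-number counts over 33924 symbols. STAR, featureCounts 1.6.2 and mm9 are named in the submitters' processing notes. Annotation, strand setting and treatment of multiply mapped reads: not given in the sources used here. From these counts, all genes were fitted with edgeR 4.0.16 in R 4.3.3 (TMM, filterByExpr, quasi-likelihood test, group as the only term, 6 libraries, Benjamini-Hochberg adjustment over 14250 genes). Exact permutation tests used scipy 1.17.1. DESeq2 1.42.0 and limma-voom (limma 3.58.1) served as alternatives, with other scalings and filters, an offset for GC content and length, a replicate block, a stricter threshold and leaving out each library. On simulated counts edgeR recovered 94.9% of 2-fold and 75.3% of 1.41-fold changes over 14058 genes. Most members changed by less than the smaller size. The simulation changed only a small share of genes, at trended dispersions, whereas 50.9% of all tested genes were called here. Its rates therefore need not hold for these data.

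Lengths, GC content and shared 50-base stretches came from GENCODE vM21 (GRCm38), matched by symbol or a single older symbol, for 13911 tested genes (97.6%). No coordinates on the build of the counts are given. Members and gene lists were chosen with earlier results of these data known. A rule named all 10 members, up to 4 called genes per role, smallest adjusted p first (the 2 highest expressed where none was called), and the 5 genes most like Rif1. D2Ertd750e, listed in error as an older symbol of Knl1, was left out. Replicate numbers are not stated to mark a shared culture or day. No pair of replicates held identical counts (chi-square per degree of freedom from 1.27 to 4.22). This value cannot tell separate libraries from the same library sequenced again. It was lowest, 1.27, between Rif1-KO replicates 1 and 2.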

Additional observations from a re-analysis of the deposited data

How the results depend on the processing

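Under 16 alternatives 7 of the 10 members passed throughout in 1 direction: Ppp1ca, Ppp1cc, Ppp1r2, Ppp1r7, Ppp1r8, Ppp1r10 and Ppp1r12a. Members that rose numbered 2 to 3 and members that fell 5 to 6 over all of them. Without 1 library the counts of all genes ran from 3288 to 3667 higher and 3037 to 3432 lower, of members from 2 to 3 and from 5 to 6, and of the wider list from 11 to 12 and from 18 to 21.

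Rif1 passed in 8 of 16: with RLE scaling (−0.1229, adjusted p = 0.0453), upper-quartile scaling (−0.1205, adjusted p = 0.0418), limma-voom (−0.1205, adjusted p = 0.0264), no filter on low counts (−0.1228, adjusted p = 0.0296), the GC content and length offset (−0.2732, adjusted p = 1.64e-05) and the replicate block below, and in 2 fits without 1 library. Its log2 fold change ran from −0.1665 to −0.0938 without 1 library, and the cause was not tested. Ppp1cb reversed with the offset (−0.0466).

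The replicate numbers did not pair the libraries: same-numbered deviations correlated at 0.0793, −0.0646 and 0.0461, and of the controls only number 3 matched its own number best. With the replicate block 3779 genes rose and 3607 fell, and Rif1 was at −0.1192 (adjusted p = 0.0227). It changed no other member's call.

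Without length correction the difference in share was −3.5792 points for Ppp1ca and 6.9145 for Ppp1cb, and the log2 ratio of Rif1 to the catalytic sum reversed to −0.0031. Without 1 library the differences ran from −1.2042 to −0.2717 (Ppp1ca), 3.4743 to 3.9505 (Ppp1cb) and −3.5336 to −2.2701 points (Ppp1cc), and from 0.0264 to 0.1415 for the ratio. The longest transcript and, added after seeing the data, the longest coding transcript as length reversed no difference. Both turned the Ppp1ca share from overlapping (−0.8631) to not overlapping between the groups (−1.4676 and −1.3827 points). Ppp1r11, with the fewest reads, had the largest standard error (0.09), so depth limits that member most.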

Other observations

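Catalytic subunits of related phosphatases were not uniform. Among the 9 that were tested, calls went up for 2 and down for 2, against 26.1% and 24.8% of all tested genes. Ppp5c and Ppp4c fell by 0.34 ± 0.05 and 0.32 ± 0.05 on the log2 scale, while Ppp2cb, the minor catalytic subunit gene of PP2A, rose by 0.35 ± 0.07 and the calcineurin gene Ppp3cb by 0.27 ± 0.05, or 0.13 with the GC content and length offset. Ppp2ca, the main PP2A catalytic gene, picked with its values known, was at 247, 267 and 253 CPM in control libraries and at 248, 250.2 and 257 CPM in those labelled Rif1-KO, which overlap (edgeR adjusted p = 0.708).

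Of 6 tested genes for substrates of RIF1-bound PP1 and for the DDK kinase, 4 fell and 2 did not pass, against 24.8% of all tested genes that fell. No difference between substrates and kinase was tested. Mcm2, Mcm6 and Mcm4 fell by 0.44 ± 0.04, 0.42 ± 0.05 and 0.27 ± 0.04 on the log2 scale, and Orc1 by 0.17 ± 0.05, a call lost when control replicate 3 (adjusted p = 0.0552) or Rif1-KO replicate 1 (0.0968) was left out and at the stricter threshold of 0.01. Cdc7 and Dbf4, the 2 genes of the DDK kinase, stood at 111 ± 5.80 and 117 ± 2.44 CPM and at 183 ± 5.36 and 186 ± 2.86 CPM in control and in the libraries labelled Rif1-KO, with adjusted p values of 0.286 and 0.716 by edgeR. Both were likewise picked with their values known.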
